A study of Mus musculus with 9 samples.

Results

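The report follows 9 genes for cell adhesion molecules, chosen by name out of the 49548 genes in the deposited tables. They are Vcam1, Icam1, Madcam1, Alcam, Mcam and Ncam1 of the immunoglobulin superfamily and the cadherins Cdh2, Cdh11 and Cdh13, and all 9 were found. RNA was measured in cultured synovial fibroblasts (SFs), the connective tissue cells of the joint lining, grown from ankle joints of mice that were 8 weeks old on a CBA C57BL/6J background. There were 3 libraries from wild-type (WT) SFs, 3 from SFs of hTNFtg mice, which carry a transgene for human TNF and develop destructive polyarthritis, and 3 from hTNFtg SFs given infliximab at 1 µg/mL for 48 hours. Infliximab is a therapeutic antibody that binds human TNF. The WT and untreated hTNFtg cultures carry the label of no treatment, while the methods speak of vehicle, and all cultures had been depleted of CD45+ cells at passage 1. Per the paper hTNFtg SFs themselves make human TNF. The promoter of the transgene is not given in the sources used here, and its transcript was not analysed here. The methods call the 3 libraries of a group biological replicates without saying whether they came from separate animals, so P values measure the spread between these cultures.

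Adhesion molecules of the immunoglobulin superfamily hold cells together by binding integrins or each other, and several of them let blood leukocytes dock on vessel walls and on activated fibroblasts. VCAM-1 is bound by the integrin α4β1, ICAM-1 by the leukocyte integrins LFA-1 and Mac-1, and MAdCAM-1, the address protein of gut venules, by α4β7. ALCAM pairs with CD6 on T cells, MCAM (CD146) marks endothelial and perivascular cells, and NCAM joins neighbouring cells by binding itself. Classical cadherins bind their own kind across cell contacts and are anchored to actin by catenins. Cadherin-11 (Cdh11) is the cadherin by which SFs form the lining layer, N-cadherin (Cdh2) is the common cadherin of mesenchymal and neural cells, and T-cadherin (Cdh13) lacks a cytoplasmic tail and binds adiponectin. TNF is a textbook inducer of Icam1 and Vcam1 through the transcription factor NF-kB.

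Promoters are shown for Icam1 and for Madcam1, another known NF-kB target that was almost silent here. Icam1 was the gene of the 9 that was called in every comparison below, by a limit on P before adjustment. RefSeq entries (GRCm38.p6, the NCBI form of mm10) covering 250 bases before to 50 bases after the start site were found for 4 of the 9 genes, namely Icam1, Madcam1, Alcam and Mcam. Both strands were searched for the kappa B consensus of NF-kB, which 8.46% of 32851 promoters of this length hold, and for GGAAATTCC, a variant known from the ICAM1 promoter, which 0.317% hold. Capitals mark the matches.
Icam1, chr9:21015690-21015989, plus strand: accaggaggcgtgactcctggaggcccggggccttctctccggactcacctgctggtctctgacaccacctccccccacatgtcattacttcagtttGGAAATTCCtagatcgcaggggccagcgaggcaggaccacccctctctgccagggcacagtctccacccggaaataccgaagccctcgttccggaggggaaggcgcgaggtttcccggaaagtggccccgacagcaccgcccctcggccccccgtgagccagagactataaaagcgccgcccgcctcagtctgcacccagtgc
Madcam1, chr10:79664309-79664608, plus strand: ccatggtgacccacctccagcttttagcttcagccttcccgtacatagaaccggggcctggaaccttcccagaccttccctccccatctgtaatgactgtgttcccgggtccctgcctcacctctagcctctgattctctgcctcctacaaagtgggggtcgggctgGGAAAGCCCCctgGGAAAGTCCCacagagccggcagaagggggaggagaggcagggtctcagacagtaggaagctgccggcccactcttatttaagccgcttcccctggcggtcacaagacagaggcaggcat
In Icam1 the variant GGAAATTCC began 153 bases before the start site (position -153), and the consensus was not matched. Since the variant was searched for as a known ICAM1 site, its match in Icam1 is no independent result. In Madcam1 the consensus was matched by the opposite strand at positions -83 and -70, where the printed strand reads GGAAAGCCCC and GGAAAGTCCC. The windows of Alcam and Mcam held neither motif.

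The values are normalized counts from 3′ mRNA sequencing, which counts transcripts by their 3′ ends, and long genes therefore gain no higher level than short ones. By the value of a single read in each library, hTNFtg replicate 1 held about 613347 reads on genes and the other 8 libraries 3828946 to 9015588. A count of 3 reads stood at 18.7 normalized counts in hTNFtg replicate 1 and at 1.60 to 3.31 in the others, and this limit covers counting error only. All 10 fibroblast markers were above 3 reads in every group, and their sum was 42009 to 52743 in WT, 38175 to 46051 in hTNFtg and 35893 to 41849 with infliximab. Within the list Pdpn had a mean of 925 in WT, 4088 in hTNFtg and 2698 with infliximab, while Lum went the other way, at 811, 213 and 206. Of 10 macrophage markers, 9 in WT SFs and all 10 in both hTNFtg groups passed 3 reads in some library, none was at 0 throughout a group, and the sum was 177 to 680 in WT, 3083 to 6426 in hTNFtg and 2044 to 4194 with infliximab. Lyz2 led the sum in both hTNFtg groups. Ptprc, which encodes CD45, lay between 0 and 3 in WT, 9 and 31 in hTNFtg and 8 and 28 with infliximab. Of 8 chondrocyte markers, 7, 5 and 6 passed 3 reads in these groups, with Col9a1 at 0 throughout hTNFtg and Chad throughout infliximab, and the sum was 6233 to 9374, 548 to 1216 and 908 to 2520. The 12 hepatocyte markers summed to 934 in infliximab replicate 3 and to at most 24 elsewhere, with 6 of them at 0 in all WT and 2 in all hTNFtg libraries. The part that such differences play in the values below was not tested, and in cultures measured in bulk fewer cells of a type and less RNA per cell cannot be told apart.

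The 9 genes spanned the whole range of expression. Vcam1 stood among the top 1.55% of expressed genes by mean level in WT SFs, 1.24% in hTNFtg and 1.97% with infliximab, and supplied 38.5% to 66.2% of the summed normalized count of the 9 genes in a library. Cdh11 and Cdh2 followed in WT SFs, at ranks 2156 and 2721 of 30297 genes, and Icam1 was near rank 11204. In hTNFtg SFs Ncam1 took the place below Vcam1, moving from rank 5010 in WT to rank 1231, and it was at rank 1567 with infliximab. The 6 immunoglobulin superfamily genes summed to 1520 to 2076 in WT, 2497 to 3499 in hTNFtg and 1888 to 2244 with infliximab, so the hTNFtg libraries lay above both other groups. The 3 cadherins summed to 581 to 759, 400 to 604 and 563 to 639, and these ranges overlapped.

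**Figure D1:**
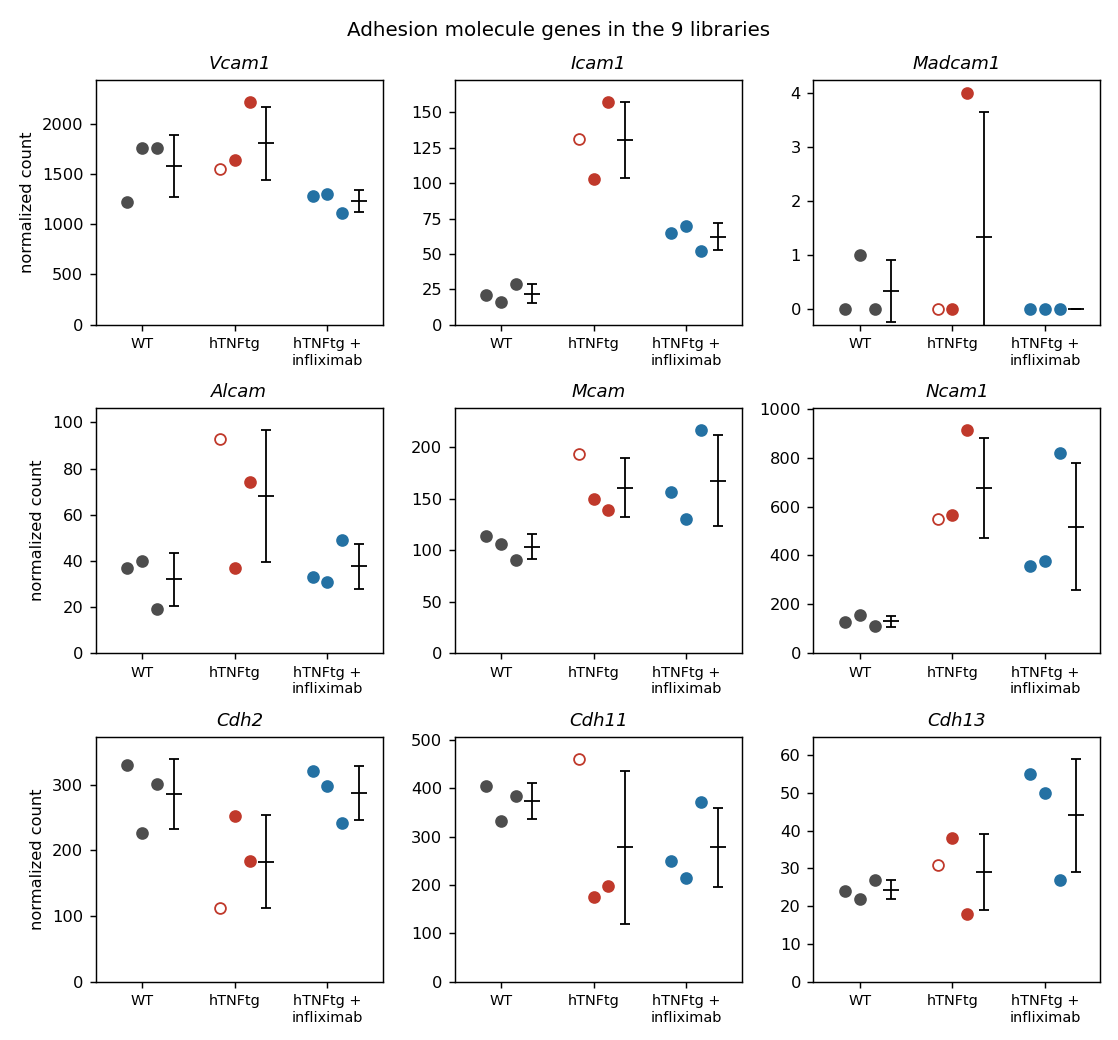
Normalized count (vertical axis, linear and scaled for each gene) of the 9 adhesion molecule genes in WT, hTNFtg and infliximab-treated hTNFtg SFs, with a point for each library in the order of replicates and the mean ± SD (n = 3) beside each group; the open point is hTNFtg replicate 1, the shallowest library. Icam1 separates all 3 groups, Ncam1 is lowest in WT, and Madcam1 is at 4 or below in every library.

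To ask which adhesion genes differ in arthritogenic SFs, hTNFtg libraries were compared with WT libraries by limma on log2(normalized count + 1). Genes were called raised or lowered where P before any adjustment was under 0.05 and the log2 fold change was 1 or more in either direction. Passing both limits is termed the paper's rule here, since the paper filtered its genes in this way. Icam1 and Ncam1 were raised, none of the 9 was lowered, and the other 7 were not called. Across all 28522 genes tested, 3.35% were raised and 3.04% lowered. The adjusted p (Benjamini-Hochberg over the whole table) was under 0.05 for both genes too, as it was for 0.48% of all genes. Over the 8 genes whose mean reached 10, the median log2 fold change was 0.41, against -0.07 over the 13634 genes of that level.

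Icam1 stood at 21, 16 and 29 normalized counts in WT SFs (22 ± 6.56, SD, n = 3) and at 131, 103 and 157 in hTNFtg SFs (130.3 ± 27.0, SD, n = 3). Every hTNFtg library was above every WT library, a separation upward seen in 5.63% of all genes tested. The mean was 5.92 times as high, and the log2 fold change was 2.53 (SE 0.39, 95% interval 1.69 to 3.38, limma adjusted p = 0.0189). Without hTNFtg replicate 1, where Icam1 rested on about 21 reads, the log2 fold change was 2.52 and the adjusted p 0.163. Over the removals of 1 library at a time, the adjusted p lay between 0.0818 and 0.266 and the log2 fold change between 2.33 and 2.74. Icam1 (ENSMUSG00000037405) lies on the plus strand of chromosome 9 of mm10, from 21015985 to 21028817. Its last 511 bases, the end that 3′ sequencing reads, are shared with the antisense gene ENSMUSG00000110790 (minus strand, 21028307 to 21032357). That gene was given 21, 15 and 25 normalized counts in WT, 125, 95 and 149 in hTNFtg and 60, 66 and 51 with infliximab. Its value was 86.2% to 100% of that of Icam1 in each library, and since use of strand in counting is not stated, the reads of the pair cannot be told apart.

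**Figure D2:**
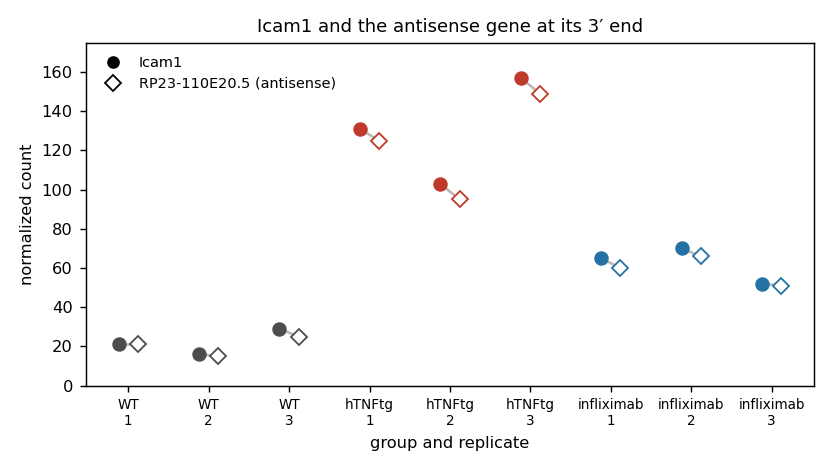
Normalized count (vertical axis, linear) of Icam1 (filled circles) and of the antisense gene ENSMUSG00000110790 that overlaps its 3′ end (open diamonds, under its clone-based name) in each of the 9 libraries (horizontal axis). The antisense value lies at 86.2% to 100% of the Icam1 value in every library.

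Ncam1 stood at 127, 155 and 110 in WT SFs (131 ± 22.7, SD, n = 3) and at 548, 565 and 911 in hTNFtg SFs (675 ± 205, SD, n = 3). The groups did not overlap, and replicate 3 was the highest of the hTNFtg libraries. The mean was 5.16 times as high, with a log2 fold change of 2.33 (SE 0.31, 95% interval 1.65 to 3.01, limma adjusted p = 0.00948). Leaving out hTNFtg replicate 3 gave an adjusted p of 0.0432, leaving out any other library gave values up to 0.257 that all missed the threshold, and the log2 fold change stayed between 2.10 and 2.46. Ncam1 (ENSMUSG00000039542) is on the minus strand of chromosome 9, from 49502136 to 49798925. Markers of Schwann cells, which also carry NCAM, summed to 114 to 222 in WT, 126 to 168 in hTNFtg and 100 to 137 with infliximab, with none of the 8 at 0 throughout a group. The list moved in both directions in hTNFtg versus WT SFs, since Mbp was raised by the rule (from a mean of 7.33 to 23.3, log2 fold change 1.503, no overlap) and S100b was lowered (from 103 to 30.3, log2 fold change -1.78). Its part in the Ncam1 difference was not tested. Skeletal muscle markers summed to 17 to 67, 24 to 94 and 24 to 75, with Myod1 and Pax7 at 0 in all WT and hTNFtg libraries. Myog was at 0 in WT but reached 4 in hTNFtg replicate 3 and 10 in infliximab replicate 3. Myf5 reached 4 in WT, 6 in hTNFtg and 1 with infliximab. The muscle sum was highest in replicate 3 of each group, at 67, 94 and 75. In those libraries Ncam1 stood at 110, 911 and 817, and a link was not tested.

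Vcam1 was high in every library, at 1221, 1758 and 1761 in WT SFs (1580 ± 311, SD, n = 3) and 1551, 1642 and 2214 in hTNFtg SFs (1802 ± 359, SD, n = 3). The groups overlapped, and the log2 fold change of 0.19 (SE 0.34, limma adjusted p = 0.840) had a 95% interval from -0.56 to 0.94. A rise of the size seen in Icam1 lies outside that interval, while smaller differences in either direction do not. Vcam1 (ENSMUSG00000027962) is on the minus strand of chromosome 3, from 116109949 to 116129688.

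Alcam and Mcam were higher on average in hTNFtg SFs without passing the rule. Alcam (ENSMUSG00000022636, chromosome 16, 52248996 to 52454074, minus strand) stood at 37, 40 and 19 in WT and at 93, 37 and 74 in hTNFtg SFs. Replicate 2 lay within the WT range, and the log2 fold change was 1.03 (SE 0.48, 95% interval -0.01 to 2.08, limma adjusted p = 0.651). Alcam passed the rule without that library (log2 fold change 1.42) and when all 9 libraries entered a single fit, and in neither case was its adjusted p under 0.05. Mcam (ENSMUSG00000032135, chromosome 9, 44134469 to 44142727, plus strand) stood at 114, 106 and 90 in WT and at 193, 150 and 139 in hTNFtg SFs. These groups did not overlap, but the log2 fold change was only 0.62 (SE 0.30, 95% interval -0.03 to 1.28, limma adjusted p = 0.684). Its first 17 bases overlap the antisense gene Gm10687, far from the end that is read, and Gm10687 stood at 51 to 76 in WT and 3 to 68 in hTNFtg SFs.

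The cadherins showed no called difference between hTNFtg and WT SFs. Cdh2 (ENSMUSG00000024304) stood at 330, 227 and 301 in WT and at 112, 253 and 184 in hTNFtg SFs, with overlapping groups and a log2 fold change of -0.70 (SE 0.35, 95% interval -1.46 to 0.06, limma adjusted p = 0.701). The lowest value came from hTNFtg replicate 1, on about 18 reads, and without it the log2 fold change was -0.39. Cdh11 (ENSMUSG00000031673, chromosome 8, 102632095 to 102785642, minus strand) stood at 405, 332 and 384 in WT SFs. In hTNFtg SFs it stood at 461, 176 and 198, so that the shallow replicate 1 lay above all WT libraries and the other two below them. The log2 fold change was -0.56 (SE 0.37, 95% interval -1.38 to 0.26, limma adjusted p = 0.726) with all libraries and -0.99 without replicate 1 (limma adjusted p = 0.207), just short of the rule's limit. Cdh13 (ENSMUSG00000031841, chromosome 8, 118283733 to 119324921, plus strand) was low, at 24, 22 and 27 in WT and 31, 38 and 18 in hTNFtg SFs, with a log2 fold change of 0.19 (95% interval -0.88 to 1.25). Replicate 1 gave only about 5 reads of Cdh13.

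Madcam1 (ENSMUSG00000020310, chromosome 10, 79664574 to 79668536, plus strand) was at or near 0. It stood at 0, 1 and 0 in WT SFs, at 0, 0 and 4 in hTNFtg SFs, the 4 being about 7 reads, and at 0 in all infliximab libraries. A count of 0 in hTNFtg replicate 1 allows a level of up to 18.7 normalized counts, and no fold change is read from it.

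**Figure D3:**
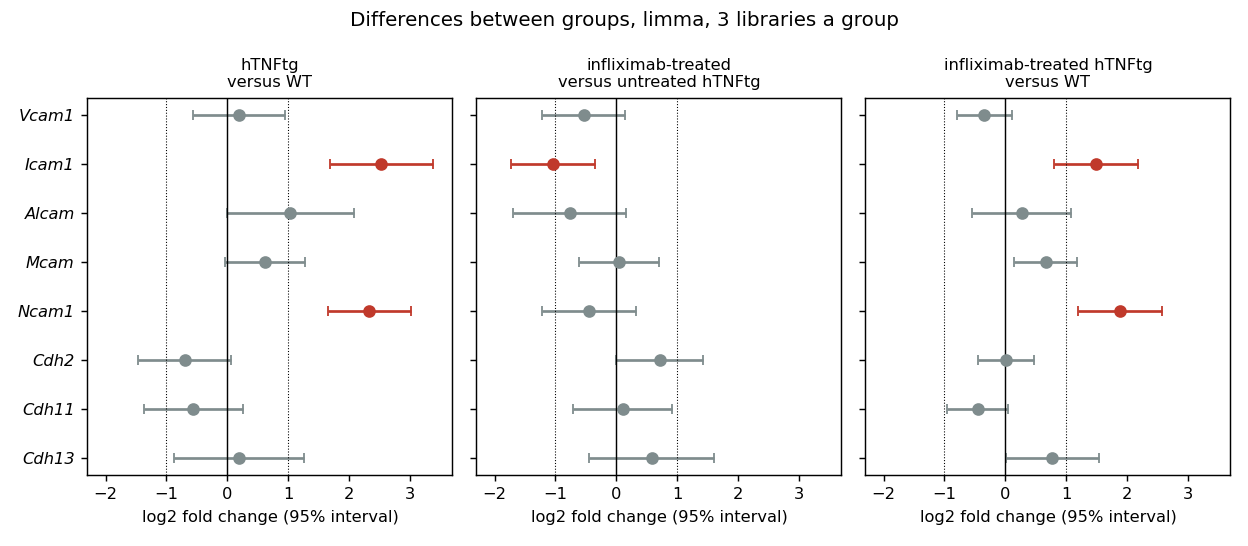
Log2 fold change with its 95% interval (horizontal axis, limma, 3 libraries a group) for the 8 adhesion molecule genes other than Madcam1 in 3 comparisons; red points passed the paper's rule and dotted lines mark a log2 fold change of 1 in each direction. Icam1 passed in all 3 panels, at 2.53, -1.04 and 1.49, and Ncam1 in the 2 comparisons with WT, at 2.33 and 1.88.

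To ask what blocking human TNF did to these genes, infliximab-treated hTNFtg SFs were compared with the same untreated hTNFtg libraries that entered the comparison with WT. Icam1 was lowered by the paper's rule, the other 8 genes were not called, and none of the 9 passed the adjusted threshold. Over all 28540 genes tested, 0.936% were lowered and 1.49% raised by the rule. By limma 0 genes (0%) passed the adjusted threshold, 1026 (3.59%) had P under 0.05 before adjustment, and edgeR passed 165 after adjustment.

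Icam1 stood at 65, 70 and 52 with infliximab (62.3 ± 9.29, SD, n = 3), below each of the untreated libraries at 131, 103 and 157. A separation downward was seen in 3.44% of all genes tested. The log2 fold change was -1.04 (SE 0.32, 95% interval -1.74 to -0.35, limma adjusted p = 0.803), close to the rule's limit of 1. It fell short of that limit without hTNFtg replicate 3 (-0.90) and without infliximab replicate 3 (-0.92), the library with the hepatocyte transcripts, and it was -1.03 without hTNFtg replicate 1. Beside this, the macrophage markers ranged from 3083 to 6426 in the untreated and from 2044 to 4194 in the treated libraries. Treated SFs remained above WT, where Icam1 stood at 16 to 29. The log2 fold change of treated hTNFtg over WT SFs was 1.49 (SE 0.31, 95% interval 0.80 to 2.18, limma adjusted p = 0.0709), so Icam1 passed the rule but not the adjusted threshold there. The order of its levels was thus WT, treated and untreated hTNFtg, with no overlap between neighbours.

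Vcam1 stood at 1276, 1304 and 1110 with infliximab (1230 ± 105, SD, n = 3), below every untreated hTNFtg library. The log2 fold change of -0.54 (SE 0.31, 95% interval -1.22 to 0.14, limma adjusted p = 0.803) did not pass the rule. Its treated levels overlapped those of WT SFs, from which they differed by a log2 fold change of -0.34 (95% interval -0.80 to 0.11).

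Ncam1 stood at 358, 378 and 817 with infliximab (518 ± 259, SD, n = 3), and all treated libraries lay above the WT range. They overlapped the untreated ones, with a log2 fold change of -0.45 (SE 0.36, 95% interval -1.23 to 0.33, limma adjusted p = 0.803). Infliximab replicate 3 stood apart from the other two, and without it the log2 fold change was -0.83 (limma adjusted p = 0.875), still short of the rule. Over WT SFs, treated SFs had a log2 fold change of 1.88 (SE 0.31, 95% interval 1.19 to 2.57, limma adjusted p = 0.0322), and of 1.5 without replicate 3 (adjusted p = 0.232). In that comparison 3.86% of 28243 genes were raised and 2.95% lowered by the rule, and 0.74% had an adjusted p under 0.05. Leaving out any 1 library took the adjusted p of Ncam1 to between 0.133 and 0.343.

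Alcam stood at 33, 31 and 49 with infliximab, overlapping both other groups, with a log2 fold change of -0.77 against untreated hTNFtg SFs (SE 0.43, 95% interval -1.70 to 0.17, limma adjusted p = 0.803). It passed the rule without hTNFtg replicate 2, at -1.15. Mcam stood at 156, 130 and 216, and the treated libraries overlapped the untreated ones around a log2 fold change of 0.04 (95% interval -0.62 to 0.70). Treated SFs lay above WT SFs in every library, as 7.14% of all genes did, with a log2 fold change of 0.66 (SE 0.23, limma adjusted p = 0.277). Mural cell markers, of interest because pericytes carry MCAM, summed to 288 to 520 in WT, 219 to 455 in hTNFtg and 522 to 583 with infliximab, with Kcnj8 and Myh11 at 0 in all WT and hTNFtg libraries. By the rule Rgs5 was lowered in hTNFtg versus WT SFs (log2 fold change -3.38), and Cspg4 was raised in treated hTNFtg versus WT SFs (log2 fold change 1.23). Rgs5 and Notch3 were raised with infliximab against untreated SFs, Rgs5 at low means of 2.33 in untreated and 14.3 in treated SFs. Of the 10 endothelial markers, Tie1 and Robo4 were at 0 in all 9 libraries and Cdh5 and Pecam1 at 3 or below, and the summed level (285 to 301 in WT, 112 to 243 in hTNFtg, 184 to 238 with infliximab) was nearly all Egfl7.

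Among the cadherins, Cdh2 stood at 321, 298 and 241 with infliximab, a range that overlapped both other groups. Its log2 fold change against untreated hTNFtg SFs was 0.71 (SE 0.33, 95% interval 0.0025 to 1.42, limma adjusted p = 0.803), and 0.40 without hTNFtg replicate 1. Against WT SFs it was 0.01 (95% interval -0.45 to 0.47). Cdh11 stood at 250, 215 and 371, with a log2 fold change of 0.10 against untreated hTNFtg SFs (95% interval -0.71 to 0.91) and of -0.46 against WT SFs (95% interval -0.96 to 0.05). Cdh13 stood at 55, 50 and 27, with a log2 fold change of 0.58 against untreated hTNFtg SFs (95% interval -0.44 to 1.61) and of 0.77 against WT SFs (SE 0.34, limma adjusted p = 0.412). Without infliximab replicate 3 it passed the rule against WT, at 1.08. Beside these values stand the chondrocyte marker sums given above, which were highest in WT SFs.

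The partners of these molecules were examined as lists. Of 14 tested receptors, ligands and modifying enzymes of the 9 genes, 5 were raised and 1 was lowered in hTNFtg versus WT SFs, where 3.35% and 3.04% of all genes were. The raised ones included the leukocyte integrin chains that bind ICAM-1. Itgb2, the β2 chain, stood at 2, 5 and 1 in WT, 87, 18 and 27 in hTNFtg and 15, 19 and 51 with infliximab. Itgam, the αM chain of Mac-1, stood at 15, 12 and 7, then 143, 54 and 89, then 40, 27 and 38. Itgal, the αL chain of LFA-1, had a mean of 3.67 in WT and 18 in hTNFtg SFs. The log2 fold changes of Itgb2, Itgam and Itgal were 3.45, 2.91 and 2.19, and of these Itgam passed the adjusted threshold (limma adjusted p = 0.0322). Leukocytes carry these chains. The macrophage marker sums given above were also higher in hTNFtg than in WT SFs, while those of treated and untreated SFs overlapped. A link between the marker sums and the integrin chains was not tested. With infliximab Itgam was the 1 gene of 13 tested that was called, lowered by a log2 fold change of -1.33 (limma adjusted p = 0.803). Of all genes 0.936% were lowered there.

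The lowered gene of this list was St8sia2, which encodes a polysialyltransferase that modifies NCAM. It stood at 56, 100 and 59 in WT SFs and at 6, 13 and 18 in hTNFtg SFs, with no overlap, as in the 5.8% of all genes that lay wholly lower, and a log2 fold change of -2.51 (SE 0.52, limma adjusted p = 0.0728). The WT libraries thus had more St8sia2 and less Ncam1 than the hTNFtg libraries. With infliximab St8sia2 stood at 4, 37 and 31, and against WT it was lowered by the rule there too (log2 fold change -1.94, limma adjusted p = 0.275). Itga9, the α9 chain of an integrin that also binds VCAM-1, was lowered in treated hTNFtg versus WT SFs, with a log2 fold change of -1.16 (limma adjusted p = 0.0914).

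Of 17 tested further vascular and leukocyte adhesion genes, 1 was raised and 1 lowered in hTNFtg versus WT SFs, Cd44 and Aoc3. With 3.35% of all genes raised and 3.04% lowered, these counts are near the background. Cd44, the hyaluronan receptor, stood at 228, 319 and 269 in WT, 922, 759 and 728 in hTNFtg and 552, 526 and 605 with infliximab, so the 3 groups did not overlap. Its log2 fold change was 1.56 over WT in untreated (limma adjusted p = 0.0385) and 1.05 in treated hTNFtg SFs (limma adjusted p = 0.0394). Aoc3, vascular adhesion protein 1, fell from a mean of 46.3 in WT to 15 in hTNFtg SFs, with a log2 fold change of -1.63 (limma adjusted p = 0.357). In treated hTNFtg versus WT SFs, where 3.86% of all genes were raised, 2 of the list were. They were Cd44 and F11r, the junctional adhesion molecule A (log2 fold change 1.77, limma adjusted p = 0.158). With infliximab against untreated SFs the 1 called gene was Icam4, lowered at a mean below 10, where 0.936% of all genes were lowered.

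No catenin or adherens junction partner of 10 tested and no other classical cadherin of 14 was called in hTNFtg versus WT SFs, which at 3.35% of all genes raised and 3.04% lowered is near the background. Of those 14 cadherins only 1 reached a mean of 10. With infliximab against untreated hTNFtg SFs, 1.49% of all genes were raised and 0.936% lowered. There 1 of 10 in the former list was raised, Jup, which encodes plakoglobin, the catenin shared by adherens junctions and desmosomes. Jup stood at 218, 208 and 105 in WT, 81, 217 and 242 in hTNFtg and 339, 496 and 636 under infliximab. Every treated library lay above the 6 others (3.99% of all genes were higher in this way against untreated SFs), with a log2 fold change of 1.54 over untreated hTNFtg (SE 0.40, limma adjusted p = 0.803) and 1.49 over WT SFs (SE 0.32, limma adjusted p = 0.0784). Over WT, 3 of the 10 were raised in treated SFs, Jup, Plekha7 and Ctnna2, the latter pair at a mean below 10. Of all genes 3.86% were raised there. Ctnnb1, the β-catenin gene that links Cdh2 and Cdh11 to actin, stood at 3292 to 4574 in WT, 2572 to 3767 in hTNFtg and 3187 to 3407 with infliximab. Cdh10 was the called gene of the other classical cadherins with infliximab, at a mean of 7.67 in untreated and 25 in treated SFs (log2 fold change 2.27, limma adjusted p = 0.803), and the groups overlapped. Over WT SFs, at a mean of 4, its log2 fold change was 2.54 without overlap (limma adjusted p = 0.130).

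Of 15 other neural and nectin-like adhesion genes, 1 was lowered in hTNFtg SFs and none was raised. It was Cadm3, a synaptic cell adhesion molecule of the nectin-like family, which stood at 30, 37 and 31 in WT, 6, 5 and 8 in hTNFtg and 8, 9 and 4 with infliximab (log2 fold change -2.21 in untreated and -2.13 in treated SFs versus WT, limma adjusted p = 0.184 and 0.0653). With 3.35% of all genes raised and 3.04% lowered, these counts are near the background. Of 8 sheddases, which cut adhesion molecules from the cell surface, and their regulators, 2 were raised in hTNFtg SFs and none was lowered. Adam8 stood at 76, 136 and 55 in WT, 349, 236 and 194 in hTNFtg and 422, 265 and 334 with infliximab (log2 fold change 1.59 and 1.999 versus WT, limma adjusted p = 0.130 and 0.0306), and Rhbdf2, a partner of ADAM17, had log2 fold changes of 2.29 and 2.19. No gene of that list was called between treated and untreated SFs, where 1.49% of all genes were raised and 0.936% lowered. Adam17 itself stood at 914 to 1339 in all 9 libraries.

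Genes of the NF-kB system were listed because TNF acts on adhesion genes through it. Of 12 tested, 8 were raised and none lowered in hTNFtg versus WT SFs, where 3.35% of all genes were raised and 3.04% lowered. The median log2 fold change of the 11 genes with a mean of at least 10 was 1.58, against -0.07 over all genes of that level. Nfkbia, the inhibitor that NF-kB itself induces, stood at 302, 267 and 319 in WT, 953, 1313 and 1714 in hTNFtg and 708, 600 and 859 with infliximab, with a log2 fold change of 2.12 in untreated hTNFtg SFs (limma adjusted p = 0.0148). Nfkbie and Tnfaip3, further feedback inhibitors, had log2 fold changes of 2.73 and 3.68 (limma adjusted p = 0.0237 and 0.124). With infliximab none was raised and 3 were lowered, Tnfaip3 (-1.52), Nfkbie (-1.47) and Nfkbib (-1.17), each with a limma adjusted p of 0.803. Of all genes 1.49% were raised and 0.936% lowered there. The median of the list was -0.63 against 0.03 over all genes of that level. In treated hTNFtg versus WT SFs 4 were raised, Nfkbia, Nfkbie, Tnfaip3 and Traf1, all of them among the 8, where 3.86% of all genes were raised. The order WT, treated and untreated hTNFtg held without overlap in Nfkbia, Nfkbie and Tnfaip3 as it did in Icam1. Tnfaip3 was low, at 0 to 3 in WT, 5 to 11 in treated and 14 to 50 in untreated hTNFtg SFs. It held in Cd44 and Itgam of the other lists too. The share of all genes with this order was not counted, so how common it is among other genes is not known. A common cause was not tested.

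**Figure D4:**
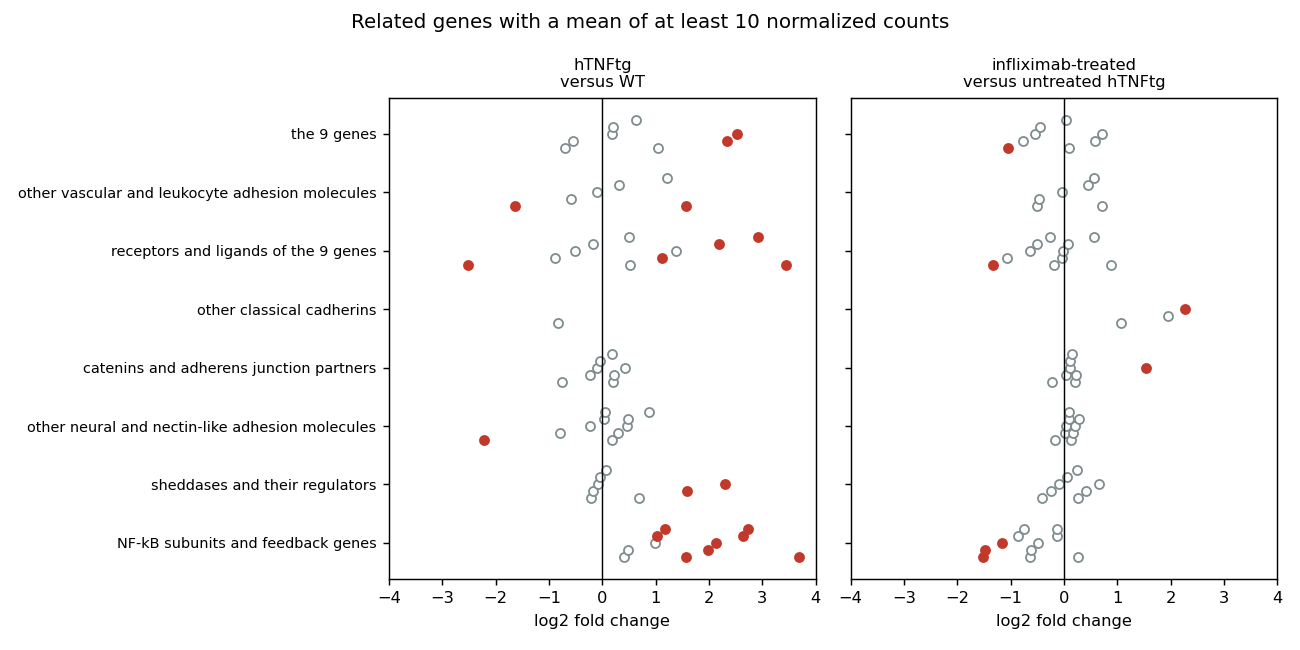
Log2 fold change (horizontal axis) of each gene with a mean of at least 10 normalized counts, grouped by list (rows), in hTNFtg versus WT SFs and in infliximab-treated versus untreated hTNFtg SFs; filled red points passed the paper's rule. In hTNFtg SFs 8 NF-kB genes lie to the right as called genes, while no catenin or other classical cadherin was called, and with infliximab Jup is the called catenin at 1.54.

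The genes whose pattern over the 9 libraries was most like that of each adhesion gene were sought among the 6036 or 6037 others whose mean reached 100, by Pearson's r of the log2 levels. The points share libraries and depth, so r is a description only. Icam1 was closest to Arpc2 (0.974) and Ecscr (0.966), and Ncam1 to Gm12070 (0.981) and AI413582 (0.979). Cdh11 was closest to Col1a2 (0.950) and Pcolce (0.947), the genes of a collagen I chain and of an enhancer of its processing. Vcam1 was closest to Rpl36al (0.974) and Polr2e (0.957), and Mcam to Cbl (0.995) and Rap2b (0.976). The closest genes reached 0.942 for Alcam (Lipa), 0.958 for Cdh2 (Sh3bp5l) and 0.936 for Cdh13 (Rab7b). Icam1, Alcam, Cdh13 and Madcam1 were below that mean and could not be named as a match, and Madcam1 was not matched.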

How the data were processed

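RNA-Seq was performed on 9 libraries in 3 groups of 3 with a QuantSeq 3′ kit on an Ion Proton. The methods name TopHat2 and Bowtie2 for mapping to mm10, GenomicRanges for counting and DESeq within metaseqR for normalization, with versions not given in the sources used here. The deposited value of a gene in 8 libraries was used as a score, since the authors had rounded their normalized counts to whole numbers. For hTNFtg replicate 1 the deposited signal was whole reads times a factor of 6.23 (99.4% of all values, zeros included, came back within rounding). The values of the other 8 libraries were likewise taken as whole reads times a factor, estimated at 0.534 to 1.10. With a factor below 1 every value comes back, so the rounding check cannot test this there. Replicate 1 thus differed in depth, and its deposited values entered the limma fits in the same way. The deposited fold changes and P values of the authors' comparisons were not used, nor were 24 further per-sample columns.

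Pairs of groups were compared by limma 3.58.1 (lmFit and eBayes with trend, R 4.3.3) on log2(normalized count + 1), without a block, keeping genes that were above 0 in any of the 6 libraries. A fold change on this scale understates changes of low genes. The design had assumed normalized counts and was kept. As an alternative edgeR 4.0.16 was run on approximate reads, obtained by dividing by the value of 1 read. The fits were tested on simulated data. Other genes named are up to 4 a list and comparison, the largest changes past the paper's rule with a mean of at least 10, or, where a list had none, its highest genes. Icam4, Plekha7, Ctnna2, and Tnfaip3 and Traf1 in treated hTNFtg versus WT SFs, were named after their values were seen. Rgs5 with infliximab against untreated SFs was also named outside this choice, at a mean below 10. The 9 genes and the lists were chosen with earlier results of these data known.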

Additional observations from a re-analysis of the deposited data

How the results depend on the processing

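Depth limits hTNFtg replicate 1, where 3 reads equal 18.7 normalized counts, so that Madcam1, at 0, could not be resolved there, and Cdh13 rested on about 5 reads. Icam1 and Ncam1 passed the paper's rule in hTNFtg versus WT SFs under all 8 other settings and every removal of 1 library, and in treated hTNFtg versus WT SFs likewise.

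In hTNFtg versus WT SFs the 2 genes with an adjusted p under 0.05 became 0 with the replicate block and 0 to 1 when 1 library was left out. In treated versus untreated hTNFtg SFs the 1 gene past the rule became 0 with a pseudocount of 5 (Icam1 at -0.997), 0 with array quality weights (-0.76), 2 with edgeR (adding Madcam1 at -4.01, on about 7 reads) and 0 to 2 when 1 library was left out. In treated hTNFtg versus WT SFs the 1 gene with an adjusted p under 0.05 became 2 with genes of a mean of at least 10, 2 with edgeR, 2 with array quality weights, 0 with the replicate block and 0 to 0 when 1 library was left out. The causes were not tested.

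Directions turned for uncalled values only. In hTNFtg versus WT SFs the fitted log2 value of Madcam1, which is no measure of its change, was -0.26 with array quality weights and ranged from -0.33 (without hTNFtg replicate 3) to 0.83 when 1 library was left out, and that of Cdh13 from -0.034 (without hTNFtg replicate 2) to 0.48. In treated versus untreated SFs Mcam ranged from -0.16 to 0.21 and Cdh11 from -0.16 to 0.54, both below 0 without hTNFtg replicate 2, hTNFtg replicate 3 or infliximab replicate 3. In treated hTNFtg versus WT SFs Alcam ranged from -0.059 (without WT replicate 3) to 0.46, and Cdh2 from -0.15 to 0.13, below 0 without WT replicate 2, infliximab replicate 1 or infliximab replicate 2.

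Whether the replicate numbers pair the libraries was left undecided. Over 13600 genes, same-numbered libraries correlated at 0.292, -0.140 and 0.353 in hTNFtg versus WT SFs. They correlated at 0.0698, 0.197 and 0.265 in treated versus untreated and at 0.102, -0.147 and 0.0125 in treated hTNFtg versus WT SFs. Differently numbered libraries ranged from -0.485 to 0.237, -0.256 to 0.126 and -0.174 to 0.216 in these comparisons. In treated versus untreated SFs each untreated library correlated most with the treated library of its number. The replicate block left 0 genes of the whole table with an adjusted p under 0.05 in each comparison. Over all genes, the 137 with an adjusted p under 0.05 in hTNFtg versus WT SFs became 371 with all 9 libraries in a single fit, 917 with edgeR, 1004 with array quality weights and 1 to 44 when 1 library was left out, while the 956 raised became 1528 with edgeR and 2218 with weights. The 426 raised and 267 lowered genes of treated versus untreated SFs became 219 and 132 with a pseudocount of 5, 193 and 121 with a mean of at least 10, 518 and 711 with edgeR and 754 and 1390 with weights. Leaving out 1 library gave 298 to 700 raised and 120 to 930 lowered, with 481 and 930 without hTNFtg replicate 1 and 124, 120 and 157 lowered without infliximab replicates 1, 2 and 3. The 209 with an adjusted p under 0.05 in treated hTNFtg versus WT SFs became 488 with a mean of at least 10, 1321 with edgeR, 378 with weights and 68 with all 9 libraries in a single fit, and 1090 raised and 833 lowered became 615 and 443 with a pseudocount of 5.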
